A study of Mus musculus with 12 samples.

Results

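The immunoglobulin kappa variable (Igkv) segments were followed through activation and differentiation of mouse splenic B cells by RNA-Seq. A row of the gene count table was taken as a member where its Entrez identifier maps to a mouse symbol that starts with Igkv, which gave 103 of 27179 genes. RefSeq lists 102 of them as V segments and 1, Igkv13-71-1, as a pseudogene. GENCODE vM21 lists 3 as pseudogenes, Igkv13-71-1, Igkv4-73 and Igkv4-60. Igkv13-71-1 had no count in any library, and the other 102 segments had a count in all 12 libraries and passed the filter on low counts. All lie on the kappa locus at chr6:67555636-70704177 (GRCm38, mm10), 38 on the plus strand, 64 on the minus strand and 1 without a strand in the annotation used.

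The 12 libraries cover 6 stages with 2 biological replicates each, from male mice aged 6 to 12 weeks. Their strain is C57BL/6 in the labels and C57BL/6 Pep3b in the account of the animals. Naive cells were untreated and sorted from spleen as TCRβ-, B220+ and IgM+ cells with high IgD. The activated cells came from B cells isolated by negative selection and cultured with 25 μg/ml lipopolysaccharide (LPS), a bacterial ligand that drives B cells to divide and to secrete antibody. Undivided cells were sorted at 3 h, 10 h and 33 h. On day 4 of a longer culture, expanded B cells (CD22+ and CD138-) and plasmablasts (CD22- and CD138+) were sorted. The sources do not say whether replicates came from separate mice, so p-values measure the spread between these libraries. Each library pooled many B cells that had rearranged different segments, and fewer cells that use a segment cannot be told apart from less of its RNA per cell. Naive cells differ from all later stages in isolation as well as in activation, so these cannot be told apart in a comparison with naive cells.

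Each kappa light chain is made from a V segment, a J segment and the constant gene Igkc, which are brought together in the genome of a developing B cell. The promoter of a V segment drives strong transcription once rearrangement places it near the enhancers beside Igkc, so counts over V segments in mature B cells mainly report which segments the cells had rearranged and how strongly they transcribe them. V segments that resemble each other in sequence form families, named by the number after Igkv. Plasmablasts transcribe the rearranged immunoglobulin genes at very high levels and secrete the product.

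Total counts per library ran from 23026619 to 60585587, and the Igkv segments took 34796 to 1478427 of them. Sorted populations carried their surface markers: Cd22 was at 393 and 418 CPM (counts scaled to library size) in the 2 expanded libraries and at 1.14 and 1.36 CPM in plasmablasts, and Sdc1 (CD138) at 3.70 and 4.95 CPM against 105 and 106 CPM. Summed markers of other cells were highest in the naive stage, though not every marker was. The 8 myeloid markers summed to 121 and 275 CPM in the naive libraries and to at most 37.5 CPM in activated ones. Of these, Lyz2, S100a8 and S100a9 were at or near 0 in every activated library. Adgre1 was not, with 3.67 and 3.71 RPKM (counts per exon length and TMM-scaled library size) in naive cells. It had 4.14 and 4.26 RPKM in expanded cells and 0.0889 and 0.117 RPKM in plasmablasts. The 5 erythroid markers present in the table summed to 146 and 196 CPM against at most 2.11 CPM, and the 8 T cell markers to 63.2 and 67.7 CPM against at most 38.8 CPM. The part of other cells in the differences between naive and activated cells was not tested.

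V exons were read from the GENCODE vM21 transcripts (GRCm38), which hold one for 99 of the 103 segments. The median V exon was 94.4% identical to that of its closest other segment, with a range from 65.6% to 99.0%. A total of 52 segments shared at least 1 stretch of 81 bases, the read length, with another Igkv gene. In 4 of them (Igkv13-84, Igkv13-85, Igkv5-43 and Igkv5-45) more than 50% of such stretches were shared, and these 4 took 4.42% of Igkv counts in naive cells and 5.39% in plasmablasts. From its own sequence, a read inside a shared stretch cannot be assigned to a single segment. The other read of its pair was not considered here, and the split between such neighbours remains uncertain.

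The first pair holds most of the share that family Igkv1 had gained by day 4, Igkv1-110 (chr6:68270955-68271254, plus strand) and Igkv1-117 (chr6:68121515-68121814, plus strand). Their V exons are 96.8% identical over 313 bases and share 26.6% of the 81-base stretches. The first 300 bases of each are shown 5′ to 3′, and capitals mark the 10 positions at which the pair differs.
Igkv1-110: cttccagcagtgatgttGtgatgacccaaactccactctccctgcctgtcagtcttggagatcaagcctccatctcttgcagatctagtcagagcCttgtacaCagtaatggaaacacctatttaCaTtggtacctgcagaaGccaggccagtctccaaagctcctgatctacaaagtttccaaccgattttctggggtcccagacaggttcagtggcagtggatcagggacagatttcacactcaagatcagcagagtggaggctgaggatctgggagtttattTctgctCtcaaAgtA
Igkv1-117: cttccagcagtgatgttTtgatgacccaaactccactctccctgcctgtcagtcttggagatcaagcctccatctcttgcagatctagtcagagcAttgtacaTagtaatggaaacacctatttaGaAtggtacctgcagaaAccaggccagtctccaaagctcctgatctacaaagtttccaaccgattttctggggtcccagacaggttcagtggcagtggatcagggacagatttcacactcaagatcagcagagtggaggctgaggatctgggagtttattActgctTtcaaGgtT

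The segments of family Igkv17 form a still closer pair that lost share, Igkv17-121 (chr6:68037021-68037318, plus strand) and Igkv17-127 (chr6:67861362-67861659, plus strand). Their V exons are 98.0% identical, with capitals at the 6 positions that differ, and 28.9% of the 81-base stretches are shared.
Igkv17-121: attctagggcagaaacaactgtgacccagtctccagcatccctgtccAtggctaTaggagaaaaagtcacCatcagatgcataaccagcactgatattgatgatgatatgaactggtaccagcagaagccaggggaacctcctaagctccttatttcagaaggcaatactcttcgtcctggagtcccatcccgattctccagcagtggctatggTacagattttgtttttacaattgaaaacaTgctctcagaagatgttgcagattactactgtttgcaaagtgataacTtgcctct
Igkv17-127: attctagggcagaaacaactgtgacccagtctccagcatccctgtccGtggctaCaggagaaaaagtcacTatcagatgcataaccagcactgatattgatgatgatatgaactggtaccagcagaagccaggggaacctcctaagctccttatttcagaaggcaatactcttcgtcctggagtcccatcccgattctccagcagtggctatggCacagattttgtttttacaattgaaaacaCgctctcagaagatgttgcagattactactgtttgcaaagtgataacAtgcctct

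Members of a family can also differ more, and move apart. Igkv6-32 (chr6:70074024-70074321, minus strand) and Igkv6-15 (chr6:70406469-70406766, minus strand) are 82.2% identical, with capitals at the 53 positions that differ, and neither shares an 81-base stretch with another segment. The share of the former fell from naive cells to plasmablasts and that of the latter was not called (log2 change 0.19, edgeR's F-test, adjusted p = 0.0555), though it passed the threshold without any 1 of the 3 h or 33 h libraries (adjusted p = 0.0408 to 0.0442). The values of Igkv6-15 were 3.43% and 3.67% in naive cells and 4.10% and 4.00% in plasmablasts.
Igkv6-32: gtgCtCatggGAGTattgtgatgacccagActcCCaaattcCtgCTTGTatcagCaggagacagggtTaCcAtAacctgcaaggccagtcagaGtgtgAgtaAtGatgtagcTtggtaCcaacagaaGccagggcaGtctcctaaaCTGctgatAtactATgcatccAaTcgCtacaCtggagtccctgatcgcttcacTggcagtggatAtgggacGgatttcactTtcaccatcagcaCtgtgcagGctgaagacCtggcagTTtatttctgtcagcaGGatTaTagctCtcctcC
Igkv6-15: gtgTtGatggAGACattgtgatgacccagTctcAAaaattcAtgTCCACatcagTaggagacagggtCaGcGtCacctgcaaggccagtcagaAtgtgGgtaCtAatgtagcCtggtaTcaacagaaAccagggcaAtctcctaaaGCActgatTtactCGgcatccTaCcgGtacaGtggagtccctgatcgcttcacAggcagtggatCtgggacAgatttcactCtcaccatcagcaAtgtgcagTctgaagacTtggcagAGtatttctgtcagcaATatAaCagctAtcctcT

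Igkv segments together took 0.247% and 0.252% of all counts in the naive libraries. The share was 0.151% and 0.152% by 3 h, 0.172% and 0.158% by 10 h and 0.191% and 0.255% by 33 h. Expanded B cells had 0.624% and 0.725% and plasmablasts 3.58% and 3.74%. Every replicate pair lay apart from the pairs of the other stages, except that the 33 h libraries lay on either side of the naive ones. The mean of 3.66% ± 0.111 (SD, n = 2) in plasmablasts was 14.7 times the naive mean of 0.250% ± 0.00379, 24.1 times the 3 h mean and 5.43 times the expanded mean. The share of a group of genes gets no p-value here, and 2 libraries against 2 cannot give an exact permutation p below 0.33.

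Counts over V segments moved together with those over the constant gene. Per kilobase of exon, all Igkv segments together had 0.757 to 0.943 times the counts of Igkc in the 12 libraries. Igkc itself took 0.256% and 0.266% of counts in naive cells and 3.80% and 4.11% in plasmablasts. The 3 lambda segments Iglv1, Iglv2 and Iglv3 took 8.97% ± 0.490 of the counts over kappa and lambda V segments in naive cells. Their part was 15.6% ± 0.237 by 10 h, 12.6% ± 0.465 by 33 h and 6.05% ± 0.288 in plasmablasts (n = 2 each), so the lambda part was highest at 10 h and lowest in plasmablasts.

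**Figure D1:**
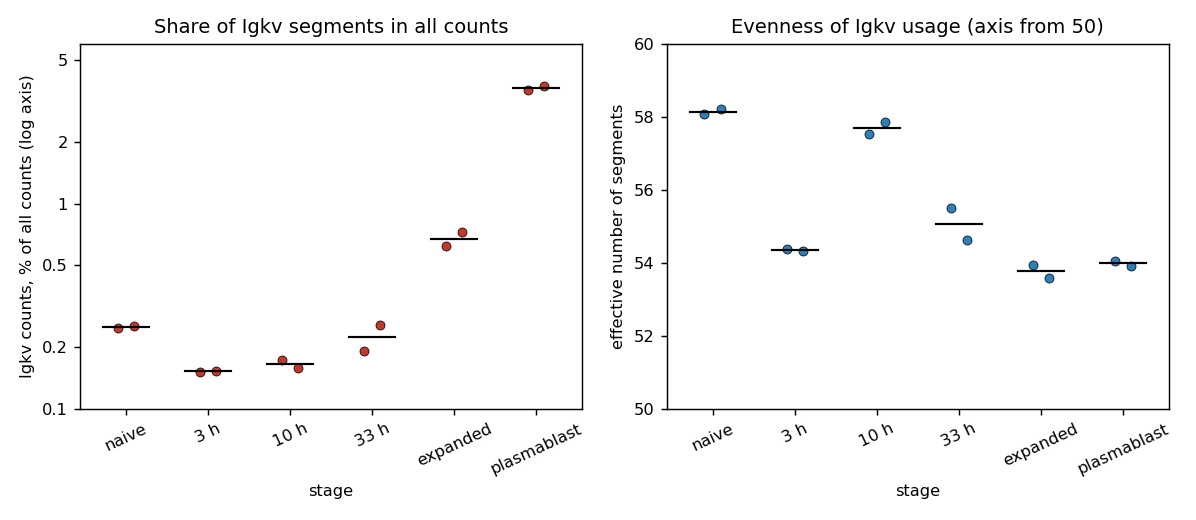
Left, Igkv counts as a percentage of all counts on a log axis, by stage. Right, the effective number of Igkv segments on an axis that starts at 50. Points are single libraries and bars are the mean of 2. The share is lowest at 3 h (0.151% and 0.152%) and highest in plasmablasts (3.58% and 3.74%), and the effective number is highest in naive cells (58.1 and 58.2).

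Levels of single segments were compared between consecutive stages with edgeR's glmTreat against a fold change of 1.5, adjusted over 12982 tested genes with the Benjamini-Hochberg method at 0.05. In the first 3 h, 23 of 102 segments fell and 0 rose, where 24.1% of all tested genes fell and 21.1% rose. The part that fell was near that of all genes, while the absence of risers was not. The median log2 fold change was -0.64 over the segments and -0.04 over all tested genes, and 96 segments had a negative value. The falls were spread over families, with 9 of 28 Igkv4 segments, 4 of 9 Igkv6 segments and 4 of 6 Igkv12 segments, but 0 of 10 Igkv1 segments. The largest falls, where the average log2 CPM was 1 or more, were those of Igkv18-36, with 58 and 31 counts in naive cells and 6 and 12 by 3 h, and of Igkv4-51, with 136 and 112 against 24 and 40. Their log2 fold changes were -1.96 ± 0.48 (standard error, edgeR's glmTreat adjusted p = 0.0091) and -1.63 ± 0.29 (adjusted p = 0.00149). Without the first naive library Igkv18-36 was not called (adjusted p = 0.0671), and its fall rests on few counts.

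From 3 h to 10 h no segment was called by edgeR's glmTreat, while 17% of all tested genes rose and 13.1% fell, and the unadjusted p was under 0.05 for 1 segment. DESeq2's Wald test called 6 segments lower, and edgeR's F-test of any change called 1 higher and 19 lower. The median log2 fold change of the segments was -0.17 with TMM scaling and 0.15 with library size alone, which shifts the median of all tested genes from 0.02 to 0.35. The direction of the segments as a group thus depended on the scaling between these stages.

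From 10 h to 33 h 4 segments rose and 1 fell, where 9.87% of all tested genes rose and 4.49% fell. The risers were Igkv9-129, Igkv11-125, Igkv9-124 and Igkv8-30, and the segment that fell was Igkv4-73. Igkv9-129 had 133 and 74 counts at 10 h and 252 and 244 by 33 h, with a log2 fold change of 1.21 ± 0.24 (edgeR's glmTreat, adjusted p = 0.024). The median log2 fold change was 0.44, and 94 of 102 segments had a positive value. These calls depended on single libraries, since 0 segments rose without the second 10 h or the second 33 h library and 19 rose without the first 33 h library. The call of Igkv4-73 held only without the first 3 h or the second 33 h library. Leaving out any other single library, also of stages outside this step, gave an adjusted p of 0.0531 to 0.431.

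From 33 h to expanded B cells 90 of 102 segments rose and 0 fell, against 8.32% and 3.85% of all tested genes. The median log2 fold change was 1.56, and all 102 segments had a positive value. All 5 Igkv5 and all 9 Igkv6 segments were among the risers, and 27 of 28 Igkv4 segments. Igkv8-21 rose most, from 668 and 616 counts at 33 h to 6310 and 6113 in expanded cells, a log2 fold change of 3.55 ± 0.17 (edgeR's glmTreat, adjusted p = 1.08e-07). Igkv12-41 followed with 598 and 479 counts against 2168 and 2917, a log2 fold change of 2.56 ± 0.21 (adjusted p = 1.57e-05 by the same test). The 12 segments not called had log2 fold changes from 0.35 (Igkv8-26) to 1.32 (Igkv7-33).

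From expanded B cells to plasmablasts all 102 tested segments rose, where 15.3% of all tested genes rose and 12.2% fell. The log2 fold changes lay between 1.92 and 3.61, with a median of 2.90, close to the value of 2.90 ± 0.15 for Igkc. Igkv18-36 had the largest, 3.61 ± 0.33 (edgeR's glmTreat, adjusted p = 3.82e-06), from 28 and 42 counts to 199 and 433, followed by Igkv1-131 with 3.43 ± 0.25, from 54 and 59 counts to 430 and 439. Igkv8-21, which had risen most in the previous step, rose least, by 1.92 ± 0.16 (adjusted p = 4.58e-06 by the same test). From naive cells to plasmablasts all 102 segments rose as well, against 27.6% of all tested genes, with log2 fold changes from 2.50 (Igkv4-73) to 5.47 (Igkv3-9) and a median of 4.12. Without TMM, scaled by library size alone, that median was 3.77, where the median of all tested genes was -0.31.

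Because the segments rose together, the share of each in all Igkv counts of a library was followed next. Shares sum to 100%, so a gain of some lowers the others. A change of share was tested with edgeR's quasi-likelihood F-test, in which the Igkv total replaced the library size for the segments. The p-values were adjusted over the same 12982 genes. Genes other than the segments kept the TMM-scaled library size, so for them the test was of a change in level. This fit was added after the data were seen. Between naive cells and plasmablasts the share of 22 segments rose and that of 34 fell, where 38.4% of all tested genes rose and 35.9% fell by this test. The changes ran from -1.63 to 1.35 on the log2 scale, 64 of 102 were smaller than 0.5 in size, and 11 called changes were larger than 1. The widest of these belonged to rare segments, chosen here after their values were seen. Igkv3-9, with 26 and 18 counts in naive cells and 829 and 887 in plasmablasts, had the gain of 1.35 ± 0.28 (edgeR's F-test, adjusted p = 0.000673), and Igkv4-73 had the loss of 1.63 ± 0.19 (adjusted p = 3.57e-06).

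**Figure D2:**
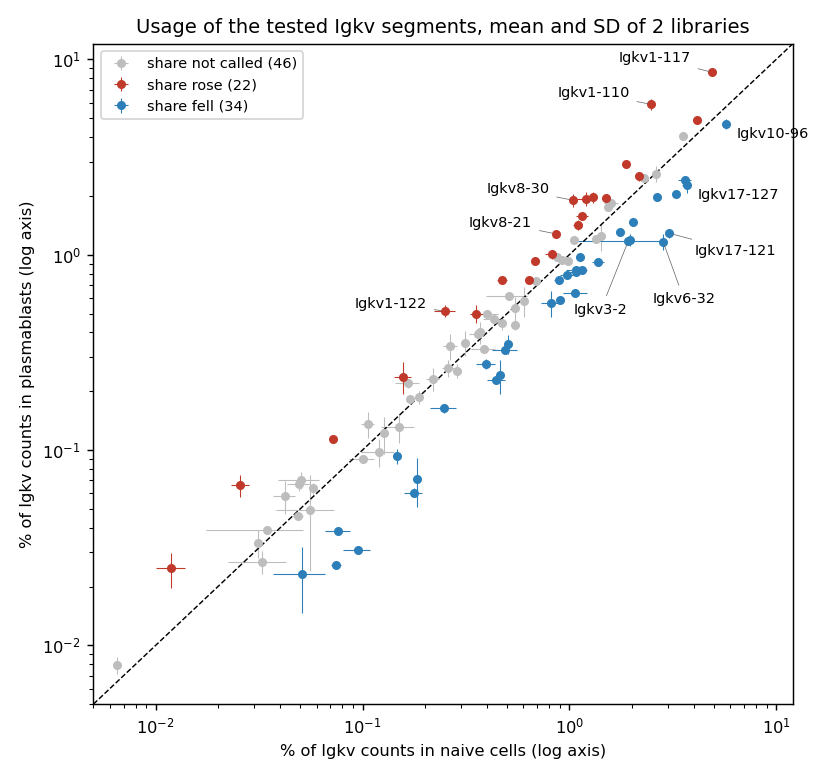
Share of Igkv counts of 102 segments in naive cells (x axis) and plasmablasts (y axis), both on log axes, as mean and SD of 2 libraries. The dashed line marks equal shares, and colours mark segments whose share rose (22), fell (34) or was not called (46). Igkv1-110 and Igkv1-117 lie above the line at the upper end and Igkv6-32 and Igkv17-121 below it.

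The segments belong to 20 V families, of which 16 had at least 1% of Igkv counts in some stage. The other 4 (Igkv7, Igkv11, Igkv18 and Igkv20, with 1 segment each) never had a stage mean above 0.238%. Family Igkv6 led in naive cells, with 15.9% and 16.6% for its 9 segments. The 28 Igkv4 segments had 13.1% and 13.2% and the 10 Igkv1 segments 13.2% and 12.7%, so their order differed between the libraries. In plasmablasts Igkv1 led, with 20.6% and 21.3%. There Igkv6 had 12.9% and 12.1% and Igkv4 had 12.5% and 13.0%, again in an order that differed between the libraries. The mean of family Igkv1 was 1.62 times as high in plasmablasts (21.0% ± 0.493, n = 2) as in naive cells (12.9% ± 0.383).

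Family Igkv1 was already at 17.5% and 16.6% by 3 h, was at 16.1% and 15.0% by 10 h and at 17.5% and 20.1% by 33 h. Its 2 leading members and the rest of the family followed different courses. Igkv1-110 and Igkv1-117 together had 7.41% ± 0.134 in naive cells, 9.11% ± 0.0172 by 3 h, 9.34% ± 0.543 by 10 h, 11.4% ± 1.49 by 33 h, 13.5% ± 0.384 in expanded cells and 14.5% ± 0.585 in plasmablasts (SD, n = 2 each). The other 8 Igkv1 segments had 5.52% ± 0.249 in naive cells, 7.92% ± 0.576 by 3 h, 4.92% ± 0.213 in expanded cells and 6.52% ± 0.0917 in plasmablasts. Among these 8, Igkv1-135 held most of the difference between naive cells and 3 h, with means of 4.16% and 6.18%. The share of 4 of the 10 Igkv1 segments rose in the first 3 h (Igkv1-110, Igkv1-117, Igkv1-122 and Igkv1-135). This is near the 34.7% of all tested genes that rose in level by edgeR's F-test. On day 4 the family stood higher mainly through the pair.

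Family Igkv17, with 2 segments, had 6.87% and 6.59% in naive cells, 5.47% and 4.57% by 33 h, 3.01% and 2.76% in expanded cells and 3.77% and 3.37% in plasmablasts. Its naive mean was 1.89 times that in plasmablasts. The 11 Igkv8 segments went the other way, with 6.41% and 6.30% in naive cells, 9.78% and 9.89% in expanded cells and 8.30% and 9.01% in plasmablasts. Family Igkv14 was highest at 3 h, at 4.93% and 4.84%, against 3.63% and 3.74% in naive cells and 2.81% and 2.88% in plasmablasts. Igkv19-93, the only member of its family, had 3.44% and 3.78% in naive cells and 2.49% and 2.34% in plasmablasts. Family Igkv4, the largest by segments, had 11.2% to 13.2% in all 12 libraries.

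Counted by segment, the share of 4 of 10 Igkv1 segments rose and that of 1 fell between naive cells and plasmablasts. In family Igkv8 it rose for 4 of 11 and fell for 1. In family Igkv6 none of 9 rose and 6 fell, and in family Igkv12 none of 6 rose and 3 fell. Family Igkv4, whose total moved little, held 3 segments that rose and 11 that fell among 28. Beside the 38.4% of all tested genes that rose and the 35.9% that fell in level, the rises in Igkv1 and Igkv8 and the falls in Igkv4 are near the background. No test over a family was made.

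**Figure D3:**
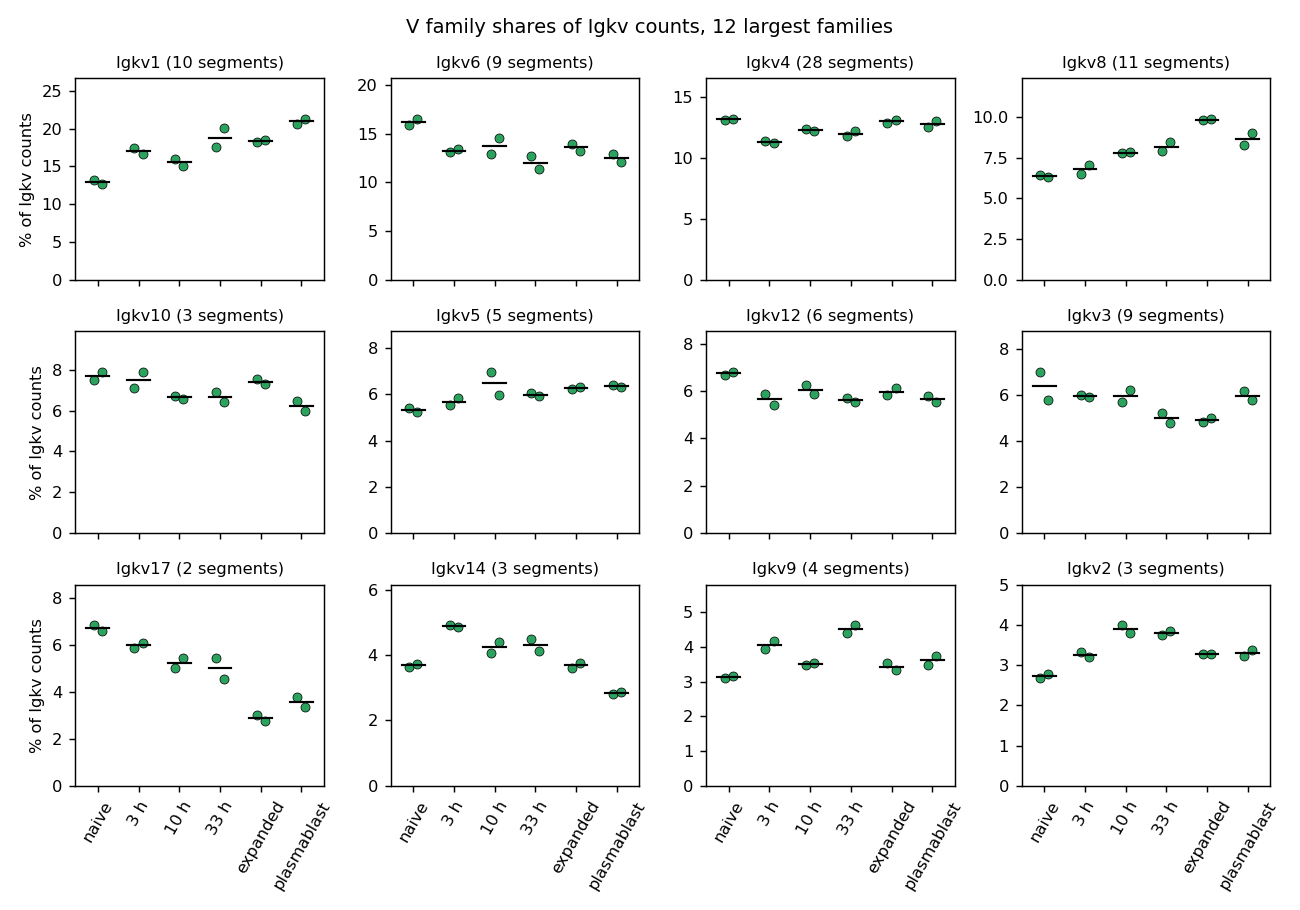
Shares of Igkv counts of the 12 largest V families by stage, with points for single libraries and bars for the mean of 2, on axes that start at 0. Igkv1 goes from 12.9% in naive cells to 21.0% in plasmablasts and Igkv17 from 6.73% to 3.57%.

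The 10 segments with the highest share per length over the 12 libraries were Igkv1-117, Igkv10-96, Igkv1-135, Igkv1-110, Igkv6-15, Igkv19-93, Igkv17-127, Igkv14-111, Igkv6-17 and Igkv9-120. Igkv10-96 led in naive cells, with 5.55% and 5.87% of Igkv counts, and had 4.86% and 4.49% in plasmablasts. Igkv1-135 led at 3 h, with 6.44% and 5.91%, against 4.26% and 4.06% in naive cells and 4.99% and 4.86% in plasmablasts. Igkv1-117 led at every later stage, so the leading segment was not the same throughout.

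Igkv1-117 had 5.07% and 4.76% of Igkv counts in naive cells, 5.96% and 5.79% by 3 h, 6.32% and 5.71% by 10 h, 6.60% and 7.64% by 33 h, 8.13% and 8.19% in expanded cells and 8.46% and 8.71% in plasmablasts. Its share in plasmablasts was 1.75 times that in naive cells, a log2 change of 0.80 ± 0.09 (edgeR's F-test, adjusted p = 2.11e-06). Single steps were small. The log2 change of share was 0.26 in the first 3 h (edgeR's F-test, adjusted p = 0.0188) and 0.24 from 10 h to 33 h (adjusted p = 0.0368). The former was not called without the second naive library (adjusted p = 0.122) or the first 3 h library (0.0564). The latter was lost without the second 10 h library (adjusted p = 0.255), the second 33 h library (0.254) or any 1 of the naive, expanded and plasmablast libraries. The steps into and out of the expanded stage were not called (adjusted p = 0.0852 and 0.493 by the same test). All expanded and plasmablast libraries lay above all earlier ones.

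Igkv1-110 had the largest gain of share among the segments with at least 0.5% of Igkv counts in some stage. It had 2.43% and 2.55% in naive cells, 3.16% and 3.31% by 3 h, 3.40% and 3.25% by 10 h, 3.77% and 4.84% by 33 h, 5.09% and 5.57% in expanded cells and 5.60% and 6.17% in plasmablasts. The mean share was 2.36 times the naive one, a log2 change of 1.24 ± 0.11 (edgeR's F-test, adjusted p = 2.88e-07). In raw numbers this was 2302 and 1923 counts in naive cells against 64743 and 91230 in plasmablasts, a log2 fold change in level of 5.37 ± 0.24 (edgeR's glmTreat, adjusted p = 2.44e-09).

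The other gains by this measure were those of Igkv1-122, Igkv8-30 and Igkv8-24. Igkv1-122, whose closest V exon is that of Igkv1-110 at 93.3% identity, had 0.271% and 0.229% in naive cells and 0.488% and 0.540% in plasmablasts, a log2 change of share of 1.04 ± 0.13 (edgeR's F-test, adjusted p = 6.43e-06). It shares no 81-base stretch with another segment. Igkv8-30 took a detour, with 1.02% and 1.06% in naive cells, 0.532% and 0.782% by 3 h, 2.09% and 2.32% in expanded cells and 1.80% and 2.00% in plasmablasts. Its share fell by 0.64 on the log2 scale in the first 3 h (edgeR's F-test, adjusted p = 0.0012) and rose by 0.61 to 33 h and by 0.87 to the expanded stage. Igkv8-24 was at 1.29% and 1.13% in naive cells and at 1.83% and 2.04% in plasmablasts, a log2 change of 0.68 ± 0.09 (adjusted p = 1.82e-05 by the same test).

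Igkv6-32 lost most share among the same segments, from 2.82% and 2.87% in naive cells to 1.24% and 1.09% in plasmablasts. By 3 h, in cells isolated in another way than the naive cells, it was at 1.66% and 1.85%. Its naive share was 2.45 times that in plasmablasts, a log2 change of -1.29 ± 0.12 (edgeR's F-test, adjusted p = 3.95e-07). Its level still rose, by 2.84 ± 0.09 on the log2 scale (edgeR's glmTreat, adjusted p = 9.75e-11).

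Igkv17-121 had 3.04% and 3.01% of Igkv counts in naive cells, 2.35% and 2.45% by 3 h, 2.20% and 2.28% by 10 h, 2.30% and 1.90% by 33 h, 1.28% and 1.17% in expanded cells and 1.34% and 1.24% in plasmablasts. The log2 change of share from naive cells to plasmablasts was -1.23 ± 0.10 (edgeR's F-test, adjusted p = 1.05e-07). Its near-copy Igkv17-127 had 3.82% and 3.58% in naive cells, 1.74% and 1.59% in expanded cells and 2.43% and 2.12% in plasmablasts. Both lost share between 33 h and the expanded stage, by 0.78 ± 0.10 and 0.81 ± 0.11 on the log2 scale (edgeR's F-test, adjusted p = 5.87e-05 and 7.22e-05). Only Igkv17-127 regained share in plasmablasts past the threshold (log2 change 0.45 ± 0.10, adjusted p = 0.00225), and the difference between the pair was not tested. Igkv12-41, Igkv6-25 and Igkv3-2 complete the 5 largest losses, with log2 changes of share of -0.75, -0.73 and -0.72.

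Some segments changed share in opposite directions at different steps. The share of Igkv8-21 was 0.842% and 0.878% in naive cells, 0.535% and 0.604% by 3 h, 0.948% and 0.888% by 10 h, 0.577% and 0.666% by 33 h, 2.42% and 2.40% in expanded cells and 1.24% and 1.32% in plasmablasts. The rise to the expanded stage was the largest change of share in any step, 1.96 ± 0.10 on the log2 scale (edgeR's F-test, adjusted p = 4.11e-08). It was followed by a fall of share of 0.91 ± 0.09 (adjusted p = 2.32e-06 by the same test). Igkv8-21 is 92.1% identical to Igkv8-30, which also gained share at the expanded stage, and 4.29% of its 81-base stretches are shared with another Igkv gene.

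Igkv12-41 had 0.971% and 1.17% in naive cells, 0.50% and 0.535% by 3 h, 0.516% and 0.518% by 33 h, 0.830% and 1.14% in expanded cells and 0.630% and 0.640% in plasmablasts. By 10 h it took 672 and 453 of the 82178 and 59802 Igkv counts, a higher share than at 3 h or 33 h. Its share changed in all 5 steps by edgeR's F-test, with adjusted p from 3.62e-05 to 0.00417. Igkv1-135 gained share in the first 3 h (log2 change 0.57 ± 0.08, adjusted p = 3.54e-05), lost it between 33 h and the expanded stage (-0.69 ± 0.08, adjusted p = 3.34e-05) and gained again in plasmablasts (0.44, adjusted p = 0.000404). Igkv14-111 and Igkv9-120 also gained share at 3 h, by 0.53 and 0.50 on the log2 scale.

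By step, the share of 11 segments rose and that of 23 fell in the first 3 h, where 34.7% and 36% of all tested genes rose and fell by the same test. The next steps had 13 and 5 (background 31.7% and 29.7%), 13 and 11 (23% and 22.6%), 13 and 21 (18.8% and 21.8%) and 18 and 11 (27.5% and 29.6%). In every step and direction the segments called were a smaller part of the 102 than the genes called were of all tested genes. The segments were tested by share and the other genes by level, so these parts are not like measures.

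Replicates of a stage differed widely in a few segments. Igkv3-2 was at 2.54% in the first naive library and at 1.31% in the second, while the other 10 libraries lay between 0.980% and 1.40%. Its loss of share from naive cells to plasmablasts was not called without the first naive library (log2 change -0.16, edgeR's F-test, adjusted p = 0.289) or without the second plasmablast library (-0.70, adjusted p = 0.0579). The first naive library had 30.5 CPM of Jchain, a plasma cell gene, against 16.6 CPM in the second. The 7 plasma cell markers, Jchain included, summed to 587 and 544 CPM in these libraries, and Sdc1 was at 23.1 and 20.4 CPM. Jchain was at 31.0 to 69.4 CPM in the 3 h and 10 h libraries. The part of plasma cells was not tested. Igkv5-39 was at 2.65% in the first 10 h library and at 1.47% in the second, and between 0.887% and 1.57% elsewhere. Igkv8-30, Igkv1-88 and Igkv4-70 differed most between the 3 h libraries, with 0.532% and 0.782%, 0.667% and 0.458%, and 0.391% and 0.273%.

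Evenness was described by the effective number of segments, the exponential of the Shannon entropy of the shares, which equals the number of segments where all are used alike. It was 58.1 and 58.2 in naive cells, 54.4 and 54.3 by 3 h, 57.5 and 57.9 by 10 h, 55.5 and 54.6 by 33 h, 53.9 and 53.6 in expanded cells and 54.1 and 53.9 in plasmablasts. Usage was thus most even in naive cells and at 10 h. Evenness, the entropy over its maximum, was 0.878 in naive cells and 0.862 in plasmablasts. The inverse Simpson number, which gives more weight to frequent segments, was 43.4 ± 0.0267 and 36.3 ± 0.361 (SD, n = 2). The leading 10 segments of a library held 37.4% of Igkv counts in naive cells, 41.3% by 3 h, 37.9% by 10 h and 41.0% in plasmablasts.

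The naive and plasmablast stages differed by 4.16 effective segments, well over the SD of 0.0952 and 0.102 within them. Without the leading segment of each library the values were 59.0 and 57.0, a difference of 1.96. The share of the leading segment was 5.71% ± 0.231 in naive cells and 8.58% ± 0.180 in plasmablasts. At 3 h, where Igkv1-135 led with 6.18% ± 0.375, the effective number without the leading segment was still 55.2 ± 0.324.

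The difference in usage between a pair of libraries was taken as the sum of the positive differences in share, in percentage points, so that 0 means the same usage. Replicates of a stage differed by 3.46 to 5.31 points and libraries of different stages by 5.69 to 17.5 points, so no pair of stages lay closer than the replicates of any stage. Naive and plasmablast libraries differed by 16.6 points on average, 3 h and expanded libraries by 16.2, and expanded and plasmablast libraries by 7.24. The libraries of 3 h and 10 h were closest among different stages, at 6.60 points. The 33 h libraries stood furthest apart as replicates. The second of them lay 9.66 to 11.6 points from the day 4 libraries and the first 11.1 to 13.5 points.

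**Figure D4:**
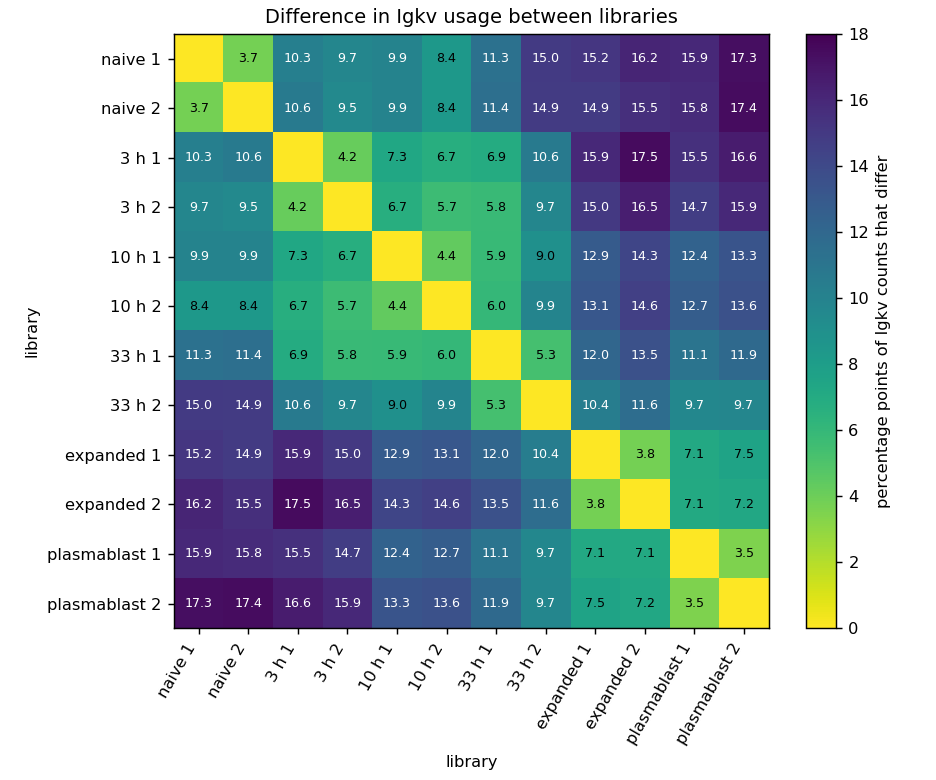
Difference in Igkv usage between each pair of the 12 libraries, in percentage points of Igkv counts, with the value in each cell and the colour scale from 0 to 18. Replicates differ by 3.46 to 5.31 points, and the expanded and plasmablast libraries form a block with 7.08 to 7.53 points between the stages.

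Usage was also read along the locus, since V segments that lie in the orientation of the J segments (the plus strand) join them by deletion of the DNA between, and those on the minus strand by inversion. The 28 segments 2000 to 3200 kb from Igkj1 held 40.2% ± 0.128 of Igkv counts in naive cells, 45.2% ± 0.187 by 3 h, 46.3% ± 0.939 by 33 h and 44.0% ± 0.108 in plasmablasts (SD, n = 2). The 34 segments 1000 to 2000 kb away held 19.9% ± 0.372 in naive cells and 17.8% ± 0.373 in plasmablasts, and the 41 nearest held 40.0% ± 0.50 and 38.2% ± 0.482. The plus strand held 44.5% ± 0.959 in naive cells, 48.8% ± 0.433 by 3 h, 43.8% ± 0.165 in expanded cells and 47.3% ± 0.00465 in plasmablasts.

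Between naive cells and plasmablasts, the share of 13 of 37 tested plus-strand segments rose and that of 9 fell, and on the minus strand 9 of 64 rose and 25 fell. Of all tested genes 38.4% rose and 35.9% fell in level, so the rises on the plus strand and the falls on the minus strand are near the background. In the first 3 h the counts were 8 and 4 on the plus strand and 3 and 19 on the minus strand, against 34.7% and 36%. The plus-strand group includes the distal members Igkv1-110, Igkv1-117, Igkv1-122 and Igkv1-135, and it also includes Igkv17-121 and Igkv17-127, which lost share. Segments that gained and lost share thus lay side by side.

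**Figure D5:**
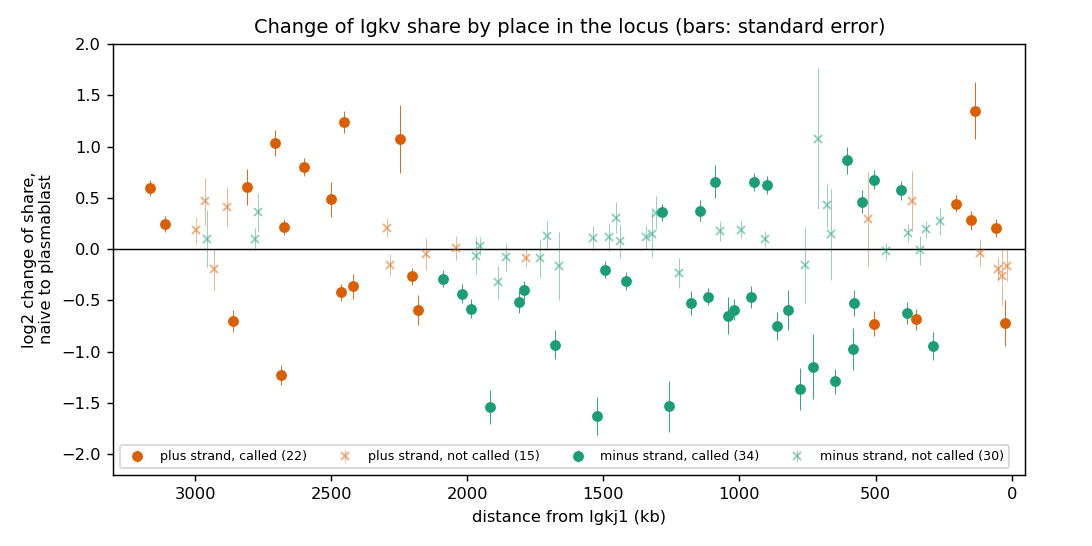
Log2 change of share from naive cells to plasmablasts against the distance of a segment from Igkj1 in kb, with standard errors. Colours mark the strand, and filled circles mark the 56 segments called by the F-test. Risers and fallers occur along the whole locus, and the gains of Igkv1-110 (1.24) and Igkv1-122 (1.04) lie over 2000 kb from Igkj1.

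The factors known to bind or co-activate kappa promoters and enhancers were compared as well, from a list of 16 genes that were all tested. In the first 3 h, 7 rose and 4 fell by edgeR's glmTreat, where 21.1% of all tested genes rose and 24.1% fell. From 3 h to 10 h none rose and 9 fell, against 17% and 13.1%. From expanded cells to plasmablasts 1 rose and 6 fell, against 15.3% and 12.2%. In these steps the median factor had log2 fold changes of 0.15, -0.82 and -0.38, where all tested genes had medians of -0.04, 0.02 and -0.03. From naive cells to plasmablasts 2 of the 16 factors rose and 10 fell, against 27.6% and 23.3% of all tested genes.

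Pou2af1, the coactivator of octamer-binding factors at V promoters, had 289 and 294 RPKM (counts per exon length and TMM-scaled library size) in naive cells, 127 and 122 by 10 h, 208 and 259 by 33 h, 484 and 520 in expanded cells and 1011 and 1071 in plasmablasts. It rose in each of the last 3 steps, with log2 fold changes of 0.91 ± 0.10, 1.10 ± 0.10 and 1.05 ± 0.10 (edgeR's glmTreat, adjusted p = 0.00638, 0.000305 and 0.000252). Spib, an Ets factor, fell from 408 and 422 RPKM in naive cells to 2.60 and 2.51 in plasmablasts (log2 fold change -7.34). Pax5, the B cell identity factor, fell from 400 and 379 to 7.33 and 6.27 RPKM (log2 fold change -5.84). Irf4 rose by 3.55 ± 0.18 on the log2 scale in the first 3 h (adjusted p = 1.63e-08 by the same test). It was at 705 and 518 RPKM by 3 h and at 128 and 135 RPKM by 10 h. No segment was called higher in either of these steps, and a link between the factors and the segments was not tested.

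Of 12 genes of V(D)J recombination 10 were tested, and Rag2 and Dntt were not. Rag1, the recombinase, was at most 0.108 RPKM in any library. Between naive cells and plasmablasts 3 of the 10 rose and 0 fell by edgeR's glmTreat, namely Hmgb1, Hmgb2 and Lig4, with log2 fold changes of 1.31, 2.42 and 1.97. This is near the 27.6% of all tested genes that rose. Hmgb2, a DNA-bending protein that is abundant in dividing cells, rose from 10 h to 33 h (2.44) and fell from expanded cells to plasmablasts (-1.07).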

How the data were processed

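RNA was sequenced as 81-base paired reads. The authors aligned them to mm10 (GRCm38) with Rsubread and deposited counts per Entrez gene from featureCounts with its inbuilt annotation. The submitters' processing notes also name CASAVA 1.8.2. The counts in the series table equal those of the 12 single-sample tables. The authors left out variable immunoglobulin segments, which were kept here. Left out were 1904 genes without a matching symbol, 15 mitochondrial and 33 ribosomal RNA genes, and 1279 genes of the sex chromosomes. The rest were filtered with filterByExpr, which left 12982 genes, and scaled by TMM.

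A 1-way layout over all 12 libraries was fitted with edgeR 4.0.16 (limma 3.58.1, R 4.3.3), using robust quasi-likelihood dispersions, and glmTreat tested changes against a fold of 1.5. Changes of share were tested with the quasi-likelihood F-test after the Igkv total replaced the library size for the segments. The Benjamini-Hochberg adjustment was used, with a threshold of 0.05. Fold changes are on the log2 scale, and errors beside them are standard errors. RPKM values come from deposited counts, exon lengths and the TMM-scaled library sizes of the filtered genes. CPM values of marker genes are scaled by all counts of a library, without TMM. DESeq2 1.42.0 served as an alternative, where a call needed an adjusted p under 0.05 in the Wald test and an estimated fold change over 1.5. The edgeR step was tested on simulated data for expanded cells against plasmablasts, over 12528 genes, where 84% of 200 changed genes and 43 of 50 changed segments were recovered. All 50 changed segments were simulated as lower in plasmablasts, the reverse of the data, and each gene had the same mean in the other stages. The recovery of segments that rise was thus not tested.

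The segments and gene lists were chosen with earlier results of these data known. Named segments were the 10 with the highest share per length, the 5 largest gains and 5 largest losses of share from naive cells to plasmablasts among the 58 with at least 0.5% in some stage, the 5 that differed most between replicates, and, for each step, up to 2 called in each direction with the largest change, given an average log2 CPM of 1 or more. The sources do not say whether a replicate number marks a shared mouse or day. Deviations of same-numbered replicates had correlations from -0.16 to 0.16 for Igkv shares (5 of 15 pairs of stages over 0.1) and from -0.24 to 0.24 over all genes (1 of 15, expanded cells with plasmablasts), so no replicate block was used. Depth sets the precision of rare segments, since counting error alone is large where a library holds few counts of a segment.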

Additional observations from a re-analysis of the deposited data

How the results depend on the processing

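No named segment changed direction under the alternatives run, for the changes checked. These were the largest called changes in level of each step. For the leading segments and the largest gains and losses, they were level and share from naive cells to plasmablasts. Segments named only for differing between replicates, and changes of share in single steps, were not part of this check. The median of the segments from 3 h to 10 h changed direction, at -0.17 with TMM and 0.15 with library size alone. The 102 segments that rose from expanded cells to plasmablasts and from naive cells to plasmablasts did so under every alternative that tested them. With at least 10 counts required in every library, only 96 were tested, and all 96 rose in both comparisons. Each of the 12 libraries was left out in turn, also for steps that do not include its stage. The 23 segments that fell in the first 3 h were 50 with library size alone, 58 with DESeq2's Wald test and 69 with edgeR's F-test of any change, and 16 to 27 with 1 library left out. From 3 h to 10 h the F-test called 1 higher and 19 lower, DESeq2 called 6 lower and the fit without a filter on low counts called 1 lower, against 0 in both directions. The 4 segments that rose from 10 h to 33 h were 9 without the filter, 29 with DESeq2 and 47 with the F-test, and 0 to 19 with 1 library left out. The 1 that fell was 0 with DESeq2 size factors, with TMM without immunoglobulin genes, without the filter or with at least 10 counts required in every library, and 0 to 1 with 1 library left out. The 90 segments that rose from 33 h to expanded cells were 71 to 92. The causes were not tested, apart from the lower bar of a test of any change.

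Changes of share with 1 library left out were, for rises and falls, 9 to 14 and 15 to 26 in the first 3 h, 10 to 16 and 2 to 6 in the next step, 3 to 14 and 5 to 11 from 10 h to 33 h, 9 to 17 and 15 to 24 from 33 h to expanded cells, 7 to 19 and 6 to 17 from expanded cells to plasmablasts, and 16 to 26 and 27 to 34 from naive cells to plasmablasts. The lowest counts came without the second 3 h library (15 falls in the first step), the first or second 10 h library (2 and 3 falls from 3 h to 10 h, 8 and 4 rises to 33 h, and 7 falls without the second), the second 33 h library (3 rises and 5 falls), the second plasmablast library (7 rises) and the first expanded library (6 falls), and 17 segments fell from expanded cells to plasmablasts without either 3 h library. Without Igkv1-110 and Igkv1-117 in the total, 35 segments rose and 29 fell in share from naive cells to plasmablasts, an alternative chosen after seeing the data.

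The Igkv share of counts was 14.7 times as high in plasmablasts as in naive cells, 13.8 times over matched nuclear genes, 9.97 times per exon length, and 14.4 to 15.0 times with 1 library left out. The ratio for family Igkv1 was 1.59 to 1.66 then. The effective number was lower in plasmablasts, by -3.92 segments per exon length, by -3.92 without the 3 pseudogenes of GENCODE, by -1.96 without the leading segment, and by -4.23 to -4.09 with 1 library left out. Replicate numbers are shared between stages, and the sources do not say what they mark. With a replicate block 25 segments fell in the first 3 h, none was called from 3 h to 10 h, 5 rose and 1 fell to 33 h, 91 rose to the expanded stage, and 102 in the last step and from naive cells to plasmablasts. For shares the block gave 23 rises and 33 falls from naive cells to plasmablasts.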
